A study of Mus musculus with 10 samples.

Results

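The genes described here are 36 interferon-stimulated and antigen-presentation genes, taken by symbol from the 27267 genes listed for interscapular brown adipose tissue (iBAT) of mice. They were chosen by name, with earlier results of these data known. They fall into 5 groups by role, namely 4 regulators of the interferon response, 15 type I effectors, 6 interferon-inducible GTPases, 6 genes of class I antigen presentation and 5 of class II. The study compared wild-type mice with mice lacking matrix Gla protein (*Mgp*), an extracellular inhibitor of bone morphogenetic proteins, to ask how *Mgp* acts in brown fat. Its 10 libraries came from 5 wild-type (WT) and 5 global *Mgp* knockout (*Mgp*-KO) mice, all labelled as C57BL/6 males of 4 weeks on standard chow, and the knockout removes the gene from every cell type. Values are normalized counts, the reads of each gene divided by a size factor of the library. Of the 36 members, 34 had a mean of at least 10 normalized counts over the 10 libraries and were tested, whereas *Oas1a* and *Mx1* were below this minimum.

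Interferons are cytokines that cells release when they sense foreign nucleic acids or when lymphocytes are activated. Type I interferons act through a complex that holds Stat2 and Irf9 and binds the interferon-stimulated response element (ISRE), while interferon gamma acts through the gamma-activated site (GAS). The induced genes include antiviral effectors, GTPases that attack the vacuoles of pathogens, and the machinery that loads peptides onto class I molecules. Class II genes are largely governed by the coactivator Ciita and are expressed chiefly by professional antigen-presenting cells, which in adipose tissue are macrophages, dendritic cells and B cells.

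Promoter sequences of RefSeq (build GRCm38.p6) were matched by symbol for 28 of the 36 members. The 250 bases before each transcription start were searched on both strands for the ISRE core GAAANNGAAA, the GAS core TTCNNNGAA and the Y box CTGATTGG of class II promoters, with overlapping matches allowed. The ISRE core was found for 13 of the 28 members (46.4%) and for 3.46% of the 27025 genes with a promoter entry. By group it was found for 5 of 5 GTPases, 6 of 11 type I effectors, 1 of 4 regulators, 1 of 6 class I genes and 0 of 2 class II genes. The GAS core was found for 7 members (25%) against 8.13% of all genes, and the Y box for 5 members (17.9%) against 4.43%, among them 3 of 6 class I genes and both class II genes. A match describes these letters only and not the binding of a factor. The promoters below are examples of these letters, from 120 to 21 bases before the start, 5′ to 3′ on the strand of the gene. All of them hold a match, and no regulator or class I gene is among them. Capitals mark the ISRE core on either strand in the first 4, and the Y box in *H2-Aa*. The stretches lie at chr4:156200839-156200938 (reverse strand) for *Isg15*, chr19:34640769-34640868 (forward) for *Ifit1*, chr12:26456473-26456572 (reverse) for *Rsad2*, chr3:142530216-142530315 (forward) for *Gbp7* and chr17:34287844-34287943 (reverse) for *H2-Aa*.
Isg15: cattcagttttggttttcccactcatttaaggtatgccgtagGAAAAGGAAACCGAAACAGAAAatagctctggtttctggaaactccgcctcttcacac
Ifit1: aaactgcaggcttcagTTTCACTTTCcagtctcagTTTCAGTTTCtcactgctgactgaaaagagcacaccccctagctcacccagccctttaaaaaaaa
Rsad2: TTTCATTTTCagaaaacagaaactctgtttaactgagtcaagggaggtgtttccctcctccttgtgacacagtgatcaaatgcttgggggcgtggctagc
Gbp7: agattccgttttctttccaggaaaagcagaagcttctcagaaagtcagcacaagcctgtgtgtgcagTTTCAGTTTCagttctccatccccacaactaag
H2-Aa: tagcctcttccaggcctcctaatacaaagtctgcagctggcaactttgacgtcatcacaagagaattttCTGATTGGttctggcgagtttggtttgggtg
In *Isg15* the capitals are 3 overlapping matches, and in *Ifit1* they are 2 separate ones. *Gbp7* also holds 2 matches of the GAS core in this stretch, which are left in lower case.

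The targeted gene was read first in every library. *Mgp* had 576, 489, 466, 1146 and 839 normalized counts in WT 1 to 5 and 0, 0.765, 0.821, 500 and 331 in the 5 libraries with the *Mgp*-KO label, in the same order, so that *Mgp*-KO 4 and 5 go against their label. Values under this label are given in this order throughout. *Xist* at 5094 in WT 2, against 0.754 to 44.0 elsewhere, goes against the male label of that mouse. Replicates 1 to 3 held 19616366 to 22252260 reads on genes with 0.771% to 1.72% on mitochondrial rRNA, and replicates 4 and 5 held 9253793 to 13281873 reads with 6.50% to 16.7%. The labels name no batch, and the members are therefore given over all libraries and within each of these sets. The brown adipocyte markers were present in every library, with summed levels of 213240 to 440196 normalized counts over 10 genes. No gene of the 7 marker lists was at 0 in all libraries.

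Divided by exon length, the members spanned a wide range in WT (GENCODE annotation of GRCm38). *B2m*, the light chain shared by class I molecules, had the top level with a median of 6578 normalized counts per kb of exon (4489 to 7941 over 5 libraries). The class I heavy chains *H2-D1* (median 1424, 1156 to 1847) and *H2-K1* (median 1140, 1059 to 1619) followed, below *B2m* in every WT library and with ranges that overlapped each other. Next came *Cd74*, the invariant chain of class II molecules, with a median of 463 (424 to 579), and *Bst2*, which tethers budding virus to the cell surface, with 346 (207 to 432). These ranges overlapped between 424, the lowest *Cd74* value, and 432, the highest *Bst2* value. At the low end stood *Mx1*, an antiviral GTPase, with a median of 1.17 (0 to 2.71), *Ciita* with 2.36 (0.461 to 2.63) and *Oas1a* with 4.59 (3.89 to 8.73). Between them lay the regulators, at medians of 37.7 for *Irf7*, 51.9 for *Irf9*, 61.0 for *Stat2* and 128 for *Irf1*. Reads of 50 bases cannot always be assigned between near-identical family members such as *H2-K1* and *H2-D1*, and the strand setting of the counting was not given in the sources used here. Exons shared with a neighbour also leave reads uncertain, as in *Psmb9* and *Tap1* (212 bases on opposite strands), *Igtp* and *Irgm2* (162 bases) and *Psmb8* (498 bases with an antisense gene).

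Over all 10 libraries no member passed the test between genotypes. In limma 0 of 34 members passed an adjusted p of 0.05, where 0.0656% of the 13714 tested genes did, and 0 members had an unadjusted p under 0.05, where 1421 tested genes had one. edgeR and DESeq2 on the recovered reads also called 0 members, where they called 0.0219% and 2.26% of tested genes. For no member did the libraries of the genotypes separate without overlap, against 1.39% of tested genes that were higher and 2.11% that were lower in all libraries labelled *Mgp*-KO. The median log2 fold change was 0.07 over the members and 0.03 over all tested genes, with 21 members above 0 and 13 below. On the recovered reads the members' median was 0.19 in both edgeR and DESeq2, with 24 and 25 members above 0, and that of type I effectors was 0.28 and 0.29. In limma it was 0.13 for regulators, 0.05 for type I effectors, 0.07 for GTPases, 0.14 for class I genes and -0.14 for class II genes. In the same order these medians were 0.30, 0.37, 0.25, 0.22 and 0.0074 without *Mgp*-KO 2. They were -0.14, -0.14, -0.22, -0.05 and -0.21 without *Mgp*-KO 4. With a term for the replicate set in limma the count stayed at 0, where 2.36% of tested genes were called, and 1 member, *Rsad2*, was called in DESeq2 with that term (2.94%, where 7.42% of tested genes were). Without *Mgp*-KO 4 the members' median was -0.17 with 6 of 34 above 0, and without both *Mgp*-KO 4 and 5 it was -0.33 with 3 of 34 above 0. The last fit has no set term and leaves replicates 4 and 5 to WT alone, so the set difference enters it. Within replicates 1 to 3 the members' median was -0.27 with 6 of 34 above 0. With *Mgp*-KO 2 alone left out of the 10 libraries it was 0.26 with 31 of 34 above 0. In a bulk sample, fewer cells of a type and less RNA per cell cannot be told apart.

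**Figure D1:**
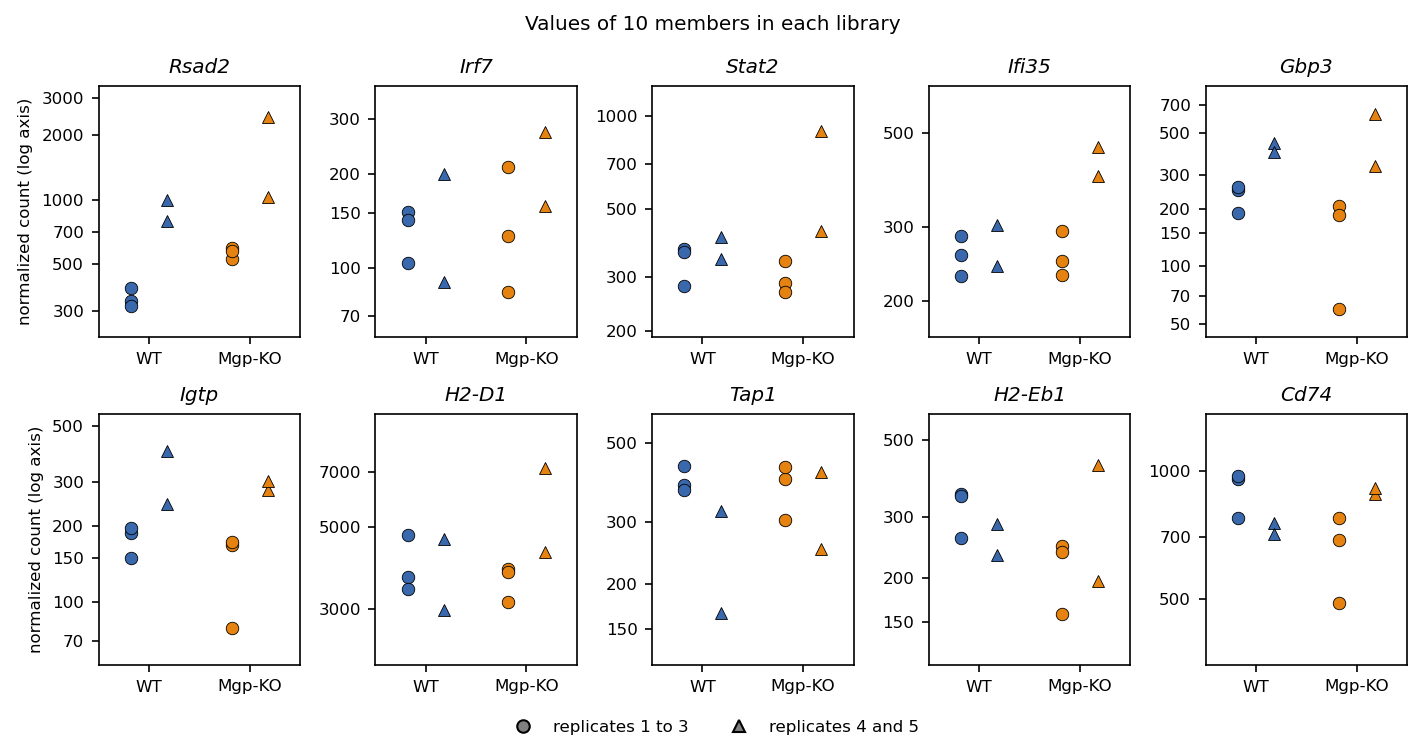
Normalized counts (log axis) of 10 members in each library of WT and of the libraries labelled Mgp-KO, with circles for replicates 1 to 3 and triangles for replicates 4 and 5. Only Rsad2 among these 10 has its circles separated with Mgp-KO above WT, at 526 to 589 against 316 to 385, and only H2-Eb1 has them separated with Mgp-KO below WT.

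Among the regulators, *Stat2*, the partner of Irf9 in the type I complex (chromosome 10, 128270559 to 128292849), had 368, 362, 279, 405 and 343 normalized counts in WT 1 to 5. Under the *Mgp*-KO label it had 286, 267, 338, 895 and 422. The value of 895 in *Mgp*-KO 4 stood apart, and the other 9 libraries lay between 267 and 422. The log2 fold change was 0.18 ± 0.30 (SE, adjusted p = 0.876, limma), and it was -0.11 without *Mgp*-KO 4. *Irf7*, the factor that amplifies type I interferon production (chromosome 7, 141262706 to 141266481), had 151, 142, 104, 201 and 90.0 in WT and 210, 84.1, 126, 274 and 158 under the *Mgp*-KO label. These values were interspersed, with a log2 fold change of 0.25 ± 0.33 (SE, adjusted p = 0.837, limma). *Irf1* ranged from 429 to 698 in WT and from 332 to 1161 under the *Mgp*-KO label, and *Irf9* from 230 to 374 and from 129 to 510.

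Among the type I effectors, *Rsad2* had the largest log2 fold change. It encodes viperin, a radical SAM enzyme that blocks viral replication, and lies on chromosome 12 from 26442746 to 26456452. It had 336, 385, 316, 793 and 993 normalized counts in WT 1 to 5, and 589, 526, 572, 2436 and 1023 under the *Mgp*-KO label. Each knockout-labelled library was above the WT libraries of its own replicate set, but the genotypes overlapped when all 10 were pooled. The log2 fold change was 0.76 ± 0.46 (SE, adjusted p = 0.606, limma), and with the set term 0.76 ± 0.21 (adjusted p = 0.0802, limma). Without *Mgp*-KO 4 it was 0.38, and without both *Mgp*-KO 4 and 5, which keeps WT 4 and 5 against *Mgp*-KO 1 to 3, it was 0.16.

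*Ifi35*, an interferon-induced leucine zipper protein (chromosome 11, 101448407 to 101458698), had 285, 229, 257, 303 and 242 in WT and 292, 229, 249, 463 and 395 under the *Mgp*-KO label. The high values were those of *Mgp*-KO 4 and 5. An antisense gene shares 16.8% of its exon bases, and its log2 fold change was 0.26 ± 0.22 (SE, adjusted p = 0.726, limma). *Usp18*, which removes Isg15 from its targets, had a log2 fold change of 0.33 ± 0.29 (SE). *Isg15*, a ubiquitin-like modifier, was at -0.01 ± 0.48, and the RNA-binding *Ifit1*, *Ifit2* and *Ifit3* were at 0.00 ± 0.67, 0.05 ± 0.49 and 0.17 ± 0.40. The RNA sensor *Ifih1* was at 0.03 ± 0.30, and *Oas2* and *Oasl2*, of the oligoadenylate synthetase family, were at -0.08 ± 0.48 and -0.19 ± 0.32. *Bst2*, *Xaf1* and *Rtp4* were at 0.27 ± 0.38, 0.21 ± 0.32 and -0.13 ± 0.38. None of these passed the test, and apart from *Ifi35* and *Usp18* the differences were smaller than their errors. *Oas1a* was listed at 2.29 to 35.6 normalized counts and *Mx1* at 0 to 10.3, and neither was tested.

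Among the GTPases, the guanylate-binding protein *Gbp3* (chromosome 3, 142560026 to 142573209) had 251, 262, 190, 446 and 398 normalized counts in WT 1 to 5. Under the *Mgp*-KO label it had 207, 59.7, 186, 630 and 335, with the low value in *Mgp*-KO 2. The log2 fold change was -0.43 ± 0.51 (SE, adjusted p = 0.823, limma), and it was 0.03 without *Mgp*-KO 2. *Igtp*, an immunity-related GTPase (chromosome 11, 58199556 to 58207591), had 188, 150, 196, 245 and 398 in WT and 169, 78.8, 173, 277 and 302 under the *Mgp*-KO label. Its log2 fold change was -0.29 ± 0.37 (SE, adjusted p = 0.834, limma), and it was 0.0042 without *Mgp*-KO 2. The other members were at -0.02 ± 0.24 (*Gbp2*), 0.16 ± 0.58 (*Gbp7*), 0.17 ± 0.27 (*Irgm1*) and 0.46 ± 0.63 (*Iigp1*), all within their errors.

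In class I presentation, *H2-D1* (chromosome 17, 35262730 to 35267499) had 3672, 3396, 4764, 4638 and 2982 normalized counts in WT 1 to 5 and 3860, 3772, 3144, 7173 and 4281 under the *Mgp*-KO label. The value of 7173 in *Mgp*-KO 4 was the only one above 4764. The log2 fold change was 0.15 ± 0.24 (SE, adjusted p = 0.869, limma), and it was -0.033 without *Mgp*-KO 4. *Tap1*, a subunit of the transporter that carries peptides into the endoplasmic reticulum (chromosome 17, 34187553 to 34197225), had 381, 368, 431, 321 and 166 in WT and 396, 303, 428, 413 and 251 under the *Mgp*-KO label. Here the low values were those of replicate 5 of both genotypes, and it was at 0.14 ± 0.27 on the log2 scale (SE, adjusted p = 0.896, limma). Without WT 5 it was at -0.089. *H2-K1* was at -0.11 ± 0.27, *B2m* at 0.13 ± 0.27, and the immunoproteasome subunits *Psmb8* and *Psmb9* at 0.17 ± 0.35 and 0.12 ± 0.26.

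In class II presentation, the beta chain *H2-Eb1* (chromosome 17, 34305867 to 34316674) had 349, 344, 260, 233 and 286 normalized counts in WT 1 to 5. Under the *Mgp*-KO label it had 248, 158, 238, 196 and 424. In 4 of these 5 libraries the value was below the WT values of replicates 1 to 3 and in *Mgp*-KO 5 it was above all WT values, and the log2 fold change was -0.28 ± 0.26 (SE, adjusted p = 0.751, limma). *Cd74* had 956, 973, 778, 755 and 711 in WT and 778, 492, 691, 884 and 914 under the *Mgp*-KO label. Its values were lower with the knockout label in replicates 1 to 3 or level with the lowest WT value, and higher in replicates 4 and 5, with a log2 fold change of -0.17 ± 0.20 (SE, adjusted p = 0.821, limma) that was -0.028 without *Mgp*-KO 2. The chains *H2-Aa* and *H2-Ab1* were at -0.14 ± 0.23 and -0.10 ± 0.25, and *Ciita*, at 4.40 to 27.5 normalized counts, was at 0.02 ± 0.53.

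Within replicates 1 to 3, where the knockout label and the *Mgp* reads match, *Rsad2* was higher in *Mgp*-KO and no other member passed the test. *Rsad2* rose from a mean of 346 ± 35.4 to 563 ± 32.6 normalized counts (SD, n = 3 each), by 0.71 ± 0.13 on the log2 scale (SE, adjusted p = 0.0326, limma). It was the only one of 34 members called (2.94%), where 3.54% of tested genes were called, with 1.9% higher and 1.65% lower. It passed in edgeR and DESeq2 as well, which called 3.27% and 8.83% of tested genes. The call was lost when any one of WT 1, 2 or 3 or *Mgp*-KO 1 or 3 was left out. In these runs 0.19% to 1.14% of tested genes were called. It was also lost without a mean-variance trend, where 2.04% of tested genes were called. With the spread shared over the 4 groups of genotype and set it was lost too, where 0.306% were called. *Usp18* had 36.5, 40.4 and 39.0 in WT and 71.6, 73.4 and 46.8 in *Mgp*-KO, without overlap (log2 fold change 0.69 ± 0.23, SE, adjusted p = 0.147, limma). These 2 members were the only ones of 34 whose *Mgp*-KO values were all above WT (5.88%), where 15.5% of tested genes were.

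Of the 34 tested members, 28 had a log2 fold change below 0 in replicates 1 to 3, and the median was -0.27 against 0.02 over all tested genes. All 5 class II genes (median -0.48) and all 6 class I genes (median -0.20) were below 0, and the medians were -0.19 for regulators, -0.21 for type I effectors and -0.23 for GTPases. *H2-Eb1* was at -0.58 ± 0.21 (SE, adjusted p = 0.175, limma), *H2-Ab1* at -0.53 ± 0.24, *Cd74* at -0.48 ± 0.19 and *H2-Aa* at -0.47 ± 0.17. The *Mgp*-KO values were all below WT for *Oas2*, *Rtp4*, *H2-K1*, *H2-Aa* and *H2-Eb1*, which are 5 of 34 (14.7%), where 15.1% of tested genes were. None of these passed the test, and 6 members, including *Rsad2* and *Usp18*, had an unadjusted p under 0.05, as did 3016 of 13714 tested genes. *Oas2* had 47.9, 41.9 and 31.6 in WT and 18.1, 19.9 and 29.6 in *Mgp*-KO, the lowest log2 fold change of the set at -0.83 ± 0.28 (SE, adjusted p = 0.148, limma). Without *Mgp*-KO 2 the members' median was -0.06, with 24 of 34 below 0.

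**Figure D2:**
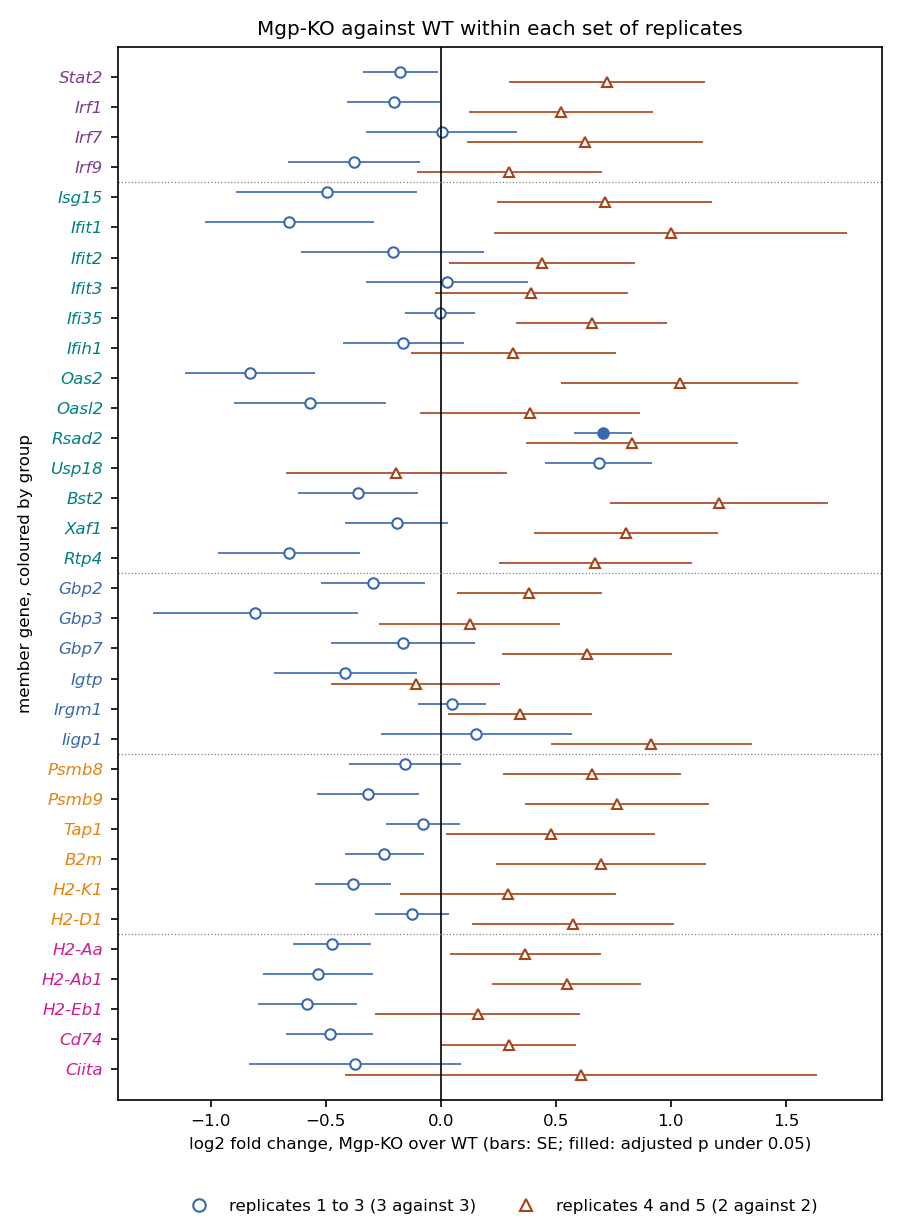
Log2 fold change of the libraries labelled Mgp-KO over WT (horizontal axis, bars for the SE) for each tested member, with circles for replicates 1 to 3, triangles for replicates 4 and 5 and filled symbols for an adjusted p under 0.05. In replicates 1 to 3, 28 of 34 members lie below 0 and Rsad2 alone is filled, while in replicates 4 and 5, 32 of 34 lie above 0 and none is filled.

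Within replicates 4 and 5, where both libraries labelled *Mgp*-KO hold *Mgp* reads, 32 of 34 members had a log2 fold change above 0 and the median was 0.56 against 0.02 over all tested genes. Limma with 2 libraries a group called 0 members and 0% of tested genes, and 1 member, *Bst2*, had an unadjusted p under 0.05, as did 855 of 13714 tested genes. In the same comparison 10 of 10 endothelial markers (median 0.89), 7 of 7 B cell markers (0.89), 3 of 3 dendritic cell markers (1.17) and 13 of 14 macrophage markers (0.36) were above 0, and 0 of 10 brown adipocyte markers were (-0.62). T and NK cell markers were above 0 for 2 of 4 and skeletal muscle markers for 5 of 8. No marker passed the test in limma, and their part in the members' values was not tested. edgeR and DESeq2 called 0 members, and 0% and 0.367% of tested genes. *Bst2* had 390 and 187 normalized counts in WT 4 and 5 and 830 and 471 under the *Mgp*-KO label, a log2 fold change of 1.21 ± 0.47 (SE, adjusted p = 0.679, limma). Both knockout-labelled values were above both WT values for 19 of 34 members (55.9%), where 20.3% of tested genes were so, and below for 0 members, where 21.3% of tested genes were. The 19 were *Stat2*, 8 type I effectors (*Isg15*, *Ifit3*, *Ifi35*, *Oas2*, *Rsad2*, *Bst2*, *Xaf1* and *Rtp4*), 4 GTPases (*Gbp2*, *Gbp7*, *Irgm1* and *Iigp1*), 3 class I genes (*Psmb8*, *Psmb9* and *B2m*) and 3 class II genes (*H2-Aa*, *H2-Ab1* and *Cd74*). The members' median was 0.24 without *Mgp*-KO 4, 0.37 without WT 5, 0.72 without WT 4 and 0.89 without *Mgp*-KO 5, with 27 to 32 of 34 above 0.

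In replicates 4 and 5 both libraries labelled *Mgp*-KO hold *Mgp* reads, so the label there need not mark a loss of *Mgp*. The difference between the effects of the genotype label in the sets was tested directly as an interaction. It was above 0 for 33 of 34 members, all but *Usp18*, with a median of 0.77 on the log2 scale against -0.01 over all tested genes. No member passed the test in limma, edgeR or DESeq2, where limma called 0.00729% of tested genes (*Mgp* alone), edgeR 0.00729% and DESeq2 0.406%, and 10 members had an unadjusted p under 0.05, as did 1419 of 13714 tested genes. The largest was that of *Oas2*, at 1.87 ± 0.53 (SE, adjusted p = 0.455, limma), followed by *Ifit1* at 1.66 ± 0.89 and *Bst2* at 1.57 ± 0.54. Class II genes lay between 0.74 and 1.08. Without *Mgp*-KO 5, 3 members passed (*Stat2*, *Oas2* and *Ifit1*), in a fit where *Mgp*-KO 4 alone stands for its group and is assumed to vary like the others. That is 8.82% of members, where 11.8% of tested genes passed in the same fit. Without *Mgp*-KO 4 none passed and the median was 0.48.

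Between the sets of replicates, 38.2% of tested genes and 35.3% of members were called in either direction. With genotype in the model, 12 of 34 members were higher in replicates 4 and 5 (35.3%), where 18.3% of tested genes were, and 0 were lower, where 19.9% of tested genes were. They comprised *Irf1*, 5 of 13 type I effectors (*Isg15*, *Ifit1*, *Ifit2*, *Ifit3* and *Rsad2*), 5 of 6 GTPases (*Gbp3*, *Gbp7*, *Igtp*, *Irgm1* and *Iigp1*), 1 of 6 class I genes (*Psmb8*) and 0 of 5 class II genes. The median log2 difference was 1.15 for GTPases, 0.74 for type I effectors, 0.58 for regulators, 0.31 for class I genes and 0.10 for class II genes, against -0.02 over all tested genes. Over all members it was 0.57, and 0.36 without *Mgp*-KO 4.

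*Iigp1*, an immunity-related GTPase, showed the largest difference. It had 200, 263 and 110 normalized counts in WT 1 to 3 and 183, 130 and 334 in *Mgp*-KO 1 to 3, against 558 and 467 in WT 4 and 5 and 1436 and 647 in *Mgp*-KO 4 and 5. The sets did not overlap, and the log2 difference was 1.88 ± 0.34 (SE, adjusted p = 0.00164, limma). *Gbp7* ranged from 207 to 440 in replicates 1 to 3 and had 969, 775, 1747 and 1040 in WT 4, WT 5, *Mgp*-KO 4 and *Mgp*-KO 5. It too separated the sets, by 1.79 ± 0.27 (SE, adjusted p = 0.000613, limma). *Rsad2* was 1.43 ± 0.21 higher (SE, adjusted p = 0.000536, limma), and *Irgm1* 0.77 ± 0.14 higher (SE, adjusted p = 0.00174, limma). Altogether the sets did not overlap for 9 members (26.5%), all higher in replicates 4 and 5, where 11.8% of tested genes were higher and 13.4% lower without overlap.

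Without *Mgp*-KO 4 there were 11 members called, of which 10 were higher and 1, *Tap1*, was lower, where 39.3% of tested genes were called and 18.6% were higher. The other libraries left out in turn gave 11 to 17 members, with 17 (50.0%, where 37.9% of tested genes were called) without WT 5. Of the 12 members called, 11 have a promoter entry and 8 of these hold the ISRE core, as do 4 of the 16 other tested members with an entry. Depth and the mitochondrial rRNA share moved with the sets, as given above. The summed endothelial markers ranged from 20826 to 28195 in replicates 1 to 3 and from 21096 to 60718 in replicates 4 and 5, the T and NK cell markers from 45.9 to 149 and from 96.9 to 178, the B cell markers from 143 to 306 and from 237 to 510, and the macrophage markers from 3448 to 4747 and from 2767 to 4591. The dendritic cell markers ranged from 964 to 1327 and from 647 to 1782, and the brown adipocyte markers from 269876 to 319302 and from 213240 to 440196. The skeletal muscle markers ranged from 35.3 to 30394 and from 283 to 32829, with a median log2 difference of 2.995 over 8 genes, of which 0 passed the test in limma. By gene, 4 of 10 endothelial markers were called higher in replicates 4 and 5 and 0 lower (median 0.48, 10 above 0). Higher were 1 of 3 dendritic cell, 1 of 4 T and NK cell and 0 of 7 B cell markers, and 0 were lower. Of 14 macrophage and of 10 brown adipocyte markers, 1 each was higher and 3 each were lower. Of all tested genes 18.3% were higher and 19.9% lower. The part of the markers in the difference was not tested.

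**Figure D3:**
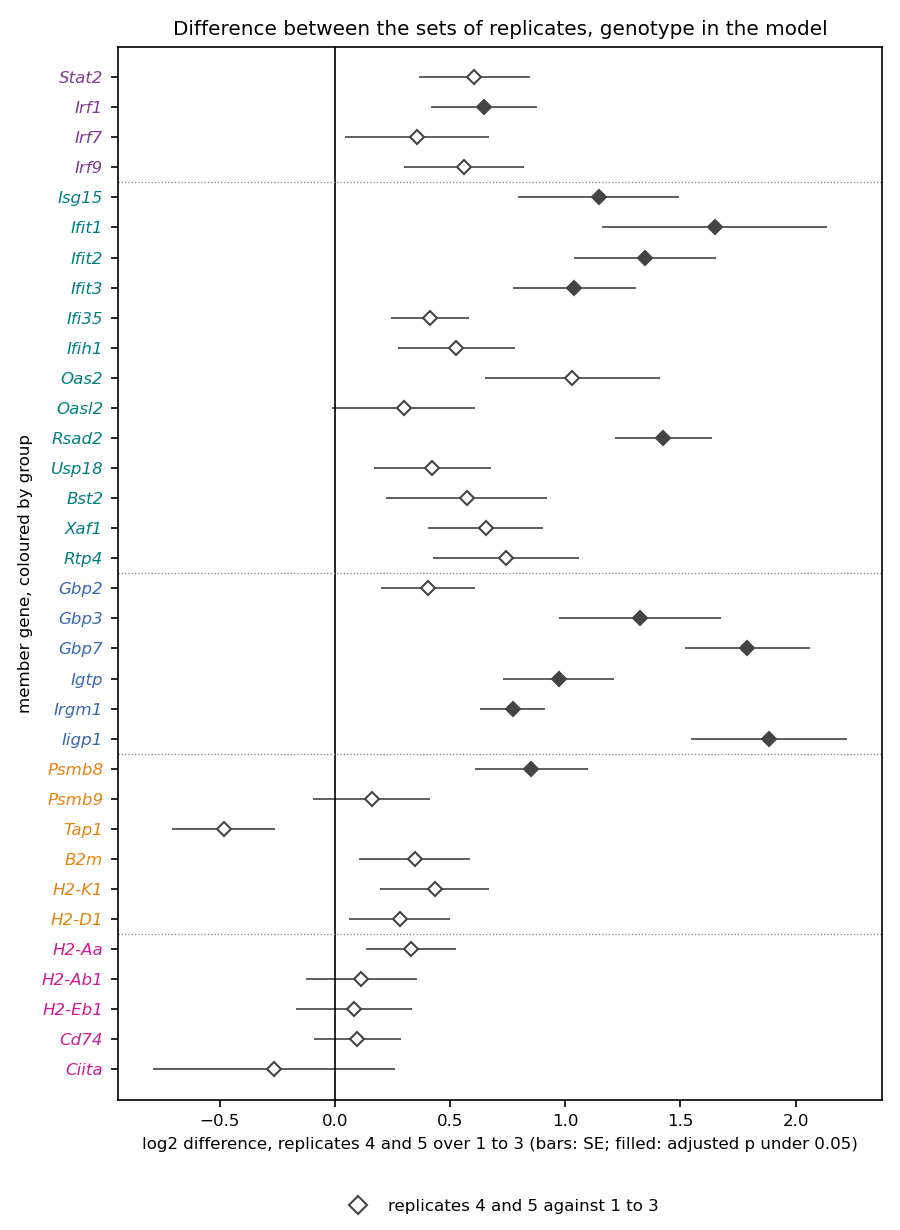
Log2 difference of replicates 4 and 5 over replicates 1 to 3 (horizontal axis, bars for the SE) for each tested member, from a model that also holds genotype, with filled symbols for an adjusted p under 0.05. The 12 filled members all lie above 0, and none of the 5 class II genes is filled.

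A pair of libraries held most of the highest and lowest values of the members. *Mgp*-KO 4 had the highest value of the 10 libraries for 26 of 34 members (76.5%), where it was highest for 25.8% of tested genes. These were 4 of 4 regulators, 10 of 13 type I effectors, 5 of 6 GTPases, 5 of 6 class I genes and 2 of 5 class II genes. Its median deviation from the mean of the 10 libraries was 0.88 on the log2 scale over the members and -0.02 over all tested genes. *Ifit1* in *Mgp*-KO 4, at 395 normalized counts, was 4.08 times the mean of the other 3 libraries of its set, *Rsad2* 2.60 times, *Iigp1* 2.58 times and *Stat2* 2.30 times. *H2-Eb1*, at 196, was 0.623 times that mean, and *H2-Aa*, at 345, was 0.948 times. The class II median deviation in this library was 0.18, against 1.20 for type I effectors.

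*Mgp*-KO 2 had the lowest value of the 10 libraries for 22 of 34 members (64.7%), where it was lowest for 13.1% of tested genes. These were 4 of 4 regulators, 8 of 13 type I effectors, 4 of 6 GTPases, 2 of 6 class I genes and 4 of 5 class II genes, and the members' median deviation was -0.75. *Gbp3*, at 59.7, was 0.272 times the mean of the other 5 libraries of its set, and *Isg15*, at 15.3, was 0.396 times. *Usp18*, at 73.4, was 1.57 times that mean, *Rsad2*, at 526, was 1.20 times, and *H2-D1*, at 3772, was 1.001 times.

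Other values stood apart in the same libraries. *Mgp*-KO 4 had the fewest reads (9253793), 16.7% of them on mitochondrial rRNA, the highest summed endothelial markers (60718, against at most 33435 elsewhere), B cell markers (510, against at most 306), T and NK cell markers (178, against at most 149) and dendritic cell markers (1782, against at most 1327), and the lowest brown adipocyte markers (213240). Its summed macrophage markers, at 3534, were within the range of the others, while 11 of the 14 genes were above the mean of its set (median deviation 0.40 on the log2 scale). All 10 endothelial, 7 tested B cell and 3 tested dendritic cell markers were above the mean of its set, as were 2 of the 4 tested T and NK cell markers. *Mgp*-KO 2 had the lowest B cell (143) and T and NK cell markers (45.9), the highest summed macrophage markers (4747) with 4 of 14 genes above the mean of its set, and skeletal muscle markers of 30394, where *Mgp*-KO 5 had 32829 and the other libraries had 35.3 to 5841. The part of these values in the levels of the members was not tested. Between genotypes none of the 7 summed marker lists passed the test, with 0.0794 as the smallest p (brown adipocyte markers, adjusted p = 0.463, two-sided exact permutation test, n = 5 per group).

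**Figure D4:**
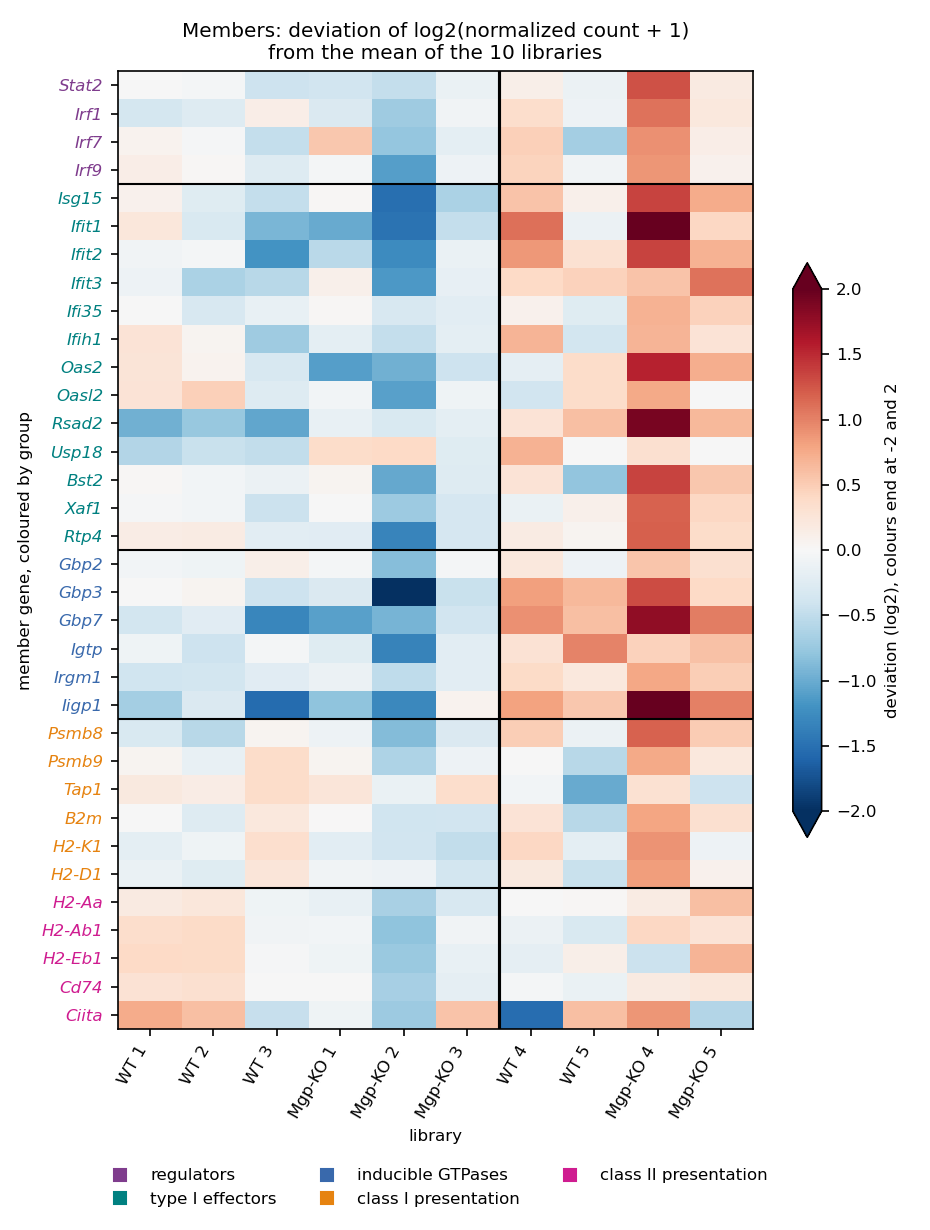
Deviation of log2(normalized count + 1) from the mean of the 10 libraries, in colour, for the 34 tested members (rows, by group) in each library (columns, replicates 1 to 3 left of the line and 4 and 5 right of it). The column of Mgp-KO 4 is the highest for 26 members and that of Mgp-KO 2 the lowest for 22.

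**Figure D5:**
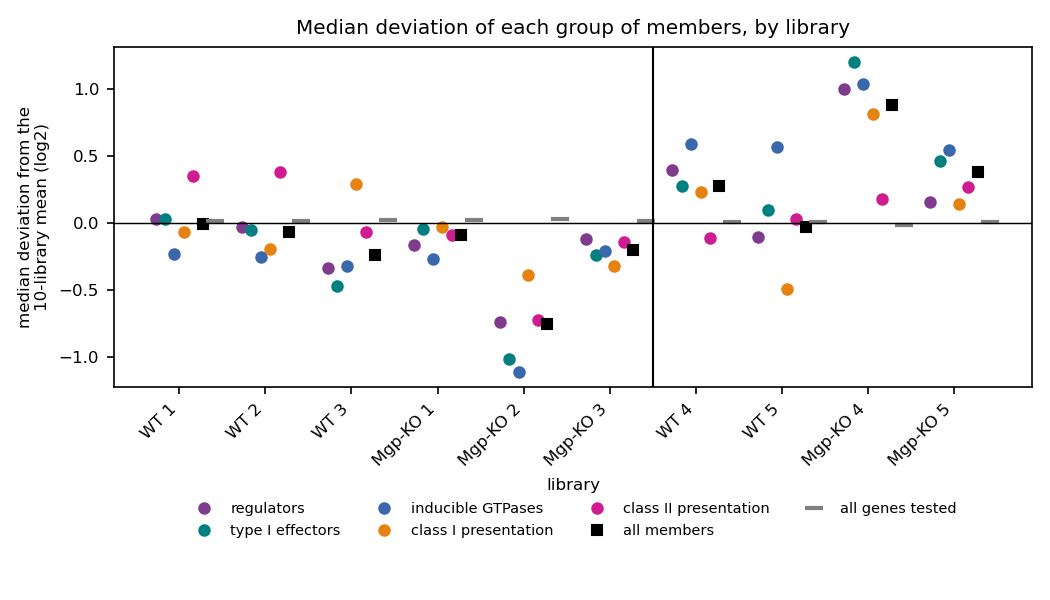
Median deviation from the 10-library mean (log2) of each group of members, of all 34 tested members and of all tested genes, by library. The median of all members runs from -0.75 in Mgp-KO 2 to 0.88 in Mgp-KO 4, while that of all tested genes stays between -0.02 and 0.03.

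Other genes of the same pathways were examined as lists over all libraries. None passed the test in limma, which 0.0656% of all tested genes passed. That was 0 of 17 tested genes of interferon receptors and Jak-Stat signalling, 0 of 15 of nucleic acid sensing, 0 of 36 further interferon-stimulated genes, 0 of 8 further GTPases, 0 of 19 further class I genes and 0 of 10 further class II genes. Of the interferon genes, *Ifng* alone was listed, with 1 read in *Mgp*-KO 1 and 0 in the other 9 libraries.

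Between genotypes, genes of these lists that passed in other limma fits included *Ifngr1*, which was higher with the knockout label. *Ifngr1*, the ligand-binding chain of the interferon gamma receptor, had 931 to 1358 normalized counts in WT and 1557 to 4347 under the *Mgp*-KO label. The labels did not overlap, as for 1.39% of tested genes that were higher. The log2 fold change was 0.92 (adjusted p = 0.214 over all libraries and 0.0444 with the set term, limma). With the set term 2.36% of tested genes passed, and *Mgp*-KO 4 and 5, which hold *Mgp* reads, counted as knockouts. In replicates 1 to 3 no gene of its list passed (smallest adjusted p = 0.0565, limma), where 3.54% of tested genes did. Between the sets of replicates, 14 of the 36 further interferon-stimulated genes were higher and 1 lower in replicates 4 and 5, as were 6 and 0 of 8 further GTPases, 5 and 0 of 19 class I genes, 1 and 2 of 10 class II genes, 3 and 2 of 17 genes of receptors and Jak-Stat signalling and 2 and 2 of 15 genes of nucleic acid sensing, where 18.3% of tested genes were higher and 19.9% lower.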

How the data were processed

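mRNA of brown fat was sequenced in 10 libraries with single-end reads of 50 bases (SMARTER kit, per the labels). The deposited values are a signal in normalized counts per gene, which the authors made by dividing read counts by size factors. STAR, DESeq2 and mm10 are named in the submitters' processing notes. The strand setting and annotation were not given in the sources used here. Each library's values were whole multiples of 1 read (100% of values within 0.01 reads, largest deviation 0.00181), so reads were recovered, with 9253793 to 22252260 per library. A floor of 3 reads corresponds to 2.15 to 5.19 normalized counts and covers counting error only.

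Tests used log2(normalized count + 1), genes with a mean of at least 10, and limma 3.58.1 with a mean-variance trend (R 4.3.3), with p-values adjusted by Benjamini-Hochberg over 13714 genes. This scale makes the fold changes of low genes too small. Genotypes were compared over 5 libraries each, and again in replicates 1 to 3 alone and in replicates 4 and 5 alone. The set difference and the interaction came from models with genotype and set. Recovered reads were tested with edgeR 4.0.16 and DESeq2 1.42.0. Scripts were tested on simulated data. Other alternatives were pseudocounts of 0.5 and 10, no filter or a minimum of 50, no trend, equal upper quartiles, quantile normalization, a replicate block, a set term, a shared spread, and each library left out. Members without overlap between groups were counted, and summed marker lists were compared by exact permutation.

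Any member could be named. Library values and full statistics were given for members past the threshold in a genotype fit and for the 2 of each group with the smallest p over all libraries, and pathway genes past the threshold in a genotype fit were named, except for items not reported here. Members and lists were chosen with earlier results of these data known. Figures were drawn with matplotlib 3.10.9.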

Additional observations from a re-analysis of the deposited data

Results flagged for a closer look

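In the group of 5 libraries labelled *Mgp*-KO, 5 members had a highest value whose gap to the next, divided by the range of the group, was above Dixon's 95% critical value of 0.71. All 5 highest values were those of *Mgp*-KO 4. They were 895 normalized counts for *Stat2*, 395 for *Ifit1*, 2436 for *Rsad2*, 6671 for *H2-K1* and 7173 for *H2-D1*. They came from 68 groups examined, that is 34 members in each genotype. Over all tested genes 9.81% of groups met the same criterion, and for 7.46% of genes it was met with *Mgp*-KO 4 highest. By chance about 1 in 20 groups would meet it.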

How the results depend on the processing

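Over all libraries 0 members were called under each alternative run except DESeq2 with a set term, which called 1 (*Rsad2*, log2 fold change 0.80, adjusted p = 0.0106, against 0.0802 in limma with that term). Over all genes the count was 9, and it was 29 with a pseudocount of 10, 1 without a filter, 15 with a minimum of 50, 34 with quantile normalization, 3 in edgeR, 374 in DESeq2, 324, 341 and 1152 with a set term in limma, edgeR and DESeq2, 267 without *Mgp*-KO 4 and 5, and 0 to 93 when single libraries were left out. *Mgp* was at -5.57 (adjusted p = 0.236, limma), and with a set term at -5.57 (adjusted p = 0.0245) in limma, -4.47 (adjusted p = 0.0740) in edgeR and -6.96 in DESeq2, at -2.11 in edgeR and -2.08 in DESeq2 without that term, and at -8.81 without *Mgp*-KO 4 and 5.

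Without *Mgp*-KO 4 and 5 the fit has no set term and leaves replicates 4 and 5 to WT alone. The set difference therefore enters its fold changes. Those of *Irf7* (-0.014), *Stat2* (-0.24), *Ifi35* (-0.035) and *H2-D1* (-0.10) turned below 0, and the GTPase median was -0.58. With single libraries left out, *Stat2* ranged from -0.11 (without *Mgp*-KO 4) to 0.33, *H2-D1* from -0.033 (without *Mgp*-KO 4) to 0.26, *Tap1* from -0.089 (without WT 5) to 0.26, *Gbp3* from -0.82 to 0.028 (without *Mgp*-KO 2) and *Igtp* from -0.48 to 0.0042 (without *Mgp*-KO 2). *Irf7* ranged from 0.054 (without *Mgp*-KO 4) to 0.48, *Ifi35* from 0.12 (without *Mgp*-KO 4) to 0.37, *H2-Eb1* from -0.49 (without *Mgp*-KO 5) to -0.14, *Cd74* from -0.25 (without *Mgp*-KO 5) to -0.028 (without *Mgp*-KO 2) and *Rsad2* from 0.38 (without *Mgp*-KO 4) to 1.0005 (without WT 5). None of these was past the threshold.

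In replicates 1 to 3 the count of 1 became 0 with no mean-variance trend, with the replicate block in limma and in edgeR, and with the spread shared over 4 groups, and was 0 to 1 with single libraries left out, 1 only without *Mgp*-KO 2. Of tested genes, 2.04% were called with no trend, 1.93% and 1.67% with the block in limma and edgeR, and 0.306% with the shared spread. Without *Mgp*-KO 2 it was 5.91%, and 0.19% to 1.14% with any other library left out. The interaction count was 0 to 3 with single libraries left out, 3 only without *Mgp*-KO 5. The set difference called 11 to 17 members with single libraries left out, 13 in edgeR (38.2%, where 37.7% of tested genes were called) and 15 in DESeq2 (44.1%, where 32.7% were). The cause of these changes was not tested.

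The replicate numbers were checked as pairs. The correlations of same-numbered libraries' deviations were 0.527, 0.0559, 0.327, 0.523 and 0.514, and 2 of 5 WT libraries correlated best with their own number, and 1 pair was under 0.1. The study speaks of pairs of mice, but no label says that a replicate number marks one, and the numbers were not treated as pairs. The replicate block called 0 members and 270 genes in limma, and 0 and 222 in edgeR. Of the pathway lists, *Ifi27l2a*, an interferon-induced gene, passed only with this block (log2 fold change 0.98, adjusted p = 0.0342, limma). No gene of interferon receptors and Jak-Stat signalling, *Ifngr1* included, passed with the block (smallest adjusted p = 0.0661, limma). Scalings chosen after seeing the data left *Mgp*-KO 4 highest for 26 to 29 members (25.1% to 37.3% of tested genes) and *Mgp*-KO 2 lowest for 22 to 24 (13.1% to 19.6%). The depth of replicates 4 and 5 limits members near the floor, such as *Mx1* and *Ciita*.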
